A study of Mus musculus with 12 samples.

Results

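The 10 genes described here are B2m, Tap1, Tap2, Tapbp, Psmb8, Psmb9, Psmb10, Psme1, Psme2 and Nlrc5, chosen by symbol for their roles in MHC class I antigen processing. They are 10 of the 38215 genes in the deposited count table, and all 10 were among the 14983 genes with enough counts to test. MHC class I molecules display peptides from inside the cell to CD8+ T cells. The immunoproteasome cuts proteins into these peptides, the TAP transporter carries them into the endoplasmic reticulum, tapasin bridges TAP to empty class I molecules, and beta-2 microglobulin is the light chain that every mature class I molecule holds. Interferons raise most genes of this route together, through factors such as IRF1 and the class I transactivator NLRC5, and macrophages raise them when they sense bacteria.

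The cells were RAW264.7, an established mouse macrophage line of BALB/c origin. All of them were nucleofected with siRNA, either a nontargeting control or one against SF3a1, a subunit of the U2 snRNP that helps define the branch point of introns. After 24 hours of siRNA the cells received no LPS or 20 ng/ml LPS for 4 hours, LPS being the bacterial outer membrane component that TLR4 detects. Each of the 4 combinations had 3 biological replicates. The design therefore asks how this route responds to LPS and how the loss of a core splicing factor changes its level at rest and after LPS.

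Counted reads per library were 20659511 to 40840082 in resting control cells (median 21313015), 13021502 to 41091887 in control cells with LPS (median 18437310), 12746019 to 27789833 in resting SF3a1 siRNA cells (median 17182329) and 17174058 to 36506558 in those with LPS (median 21830520). Levels are given as CPM (counts scaled to a common library total) after TMM scaling, and an adjusted p is the Benjamini-Hochberg value of edgeR's quasi-likelihood test over all tested genes, called below 0.1. The targeted gene Sf3a1 was at 191 CPM in control cells and 28.9 CPM in SF3a1 siRNA cells without LPS, and at 167 and 34.0 CPM with LPS, so the labels fit the target in every library. The cells carried macrophage markers throughout: Lyz2 had a median of 6380 CPM, Csf1r of 2570 CPM and Cd68 of 741 CPM over the 12 libraries. Markers of T, B, NK, dendritic, endothelial, epithelial and fibroblast cells and of neutrophils, 15 genes in all, summed to 0.692 to 3.29 CPM per library, with Ncr1 at 0 in all 12. This sum was 1.67 to 3.29 CPM in the control libraries with LPS and 1.35 to 1.70 CPM in those without, which overlapped, and 1.59 to 2.45 CPM in the SF3a1 siRNA libraries with LPS and 0.692 to 1.17 CPM in those without, which did not overlap and of which those without LPS lay below their controls. Its part in the differences below was not tested. The highest single value in the list was Pecam1 at 1.54 CPM. Of the 3 of these markers that could be tested, Xcr1 was higher and Siglech lower with LPS under either siRNA, Siglech was lower with SF3a1 siRNA without LPS, and Xcr1 was lower with it after LPS.

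The promoters of these genes are of interest because several members moved together with LPS while neighbouring members parted under SF3a1 siRNA. Of the members, 4, namely Psmb9, Tap1, Psmb8 and Tap2, lie side by side in the MHC region of chromosome 17 (mm10, chr17:34181987-34216321), where Psmb9 is read from the minus strand and the others from the plus strand. Tapbp lies in the same region (chr17:33915899-33929292), B2m on chromosome 2 (chr2:122147686-122153083), Psmb10 and Nlrc5 on chromosome 8 (chr8:105935735-105938444 and chr8:94434356-94527272) and Psme1 and Psme2 close together on chromosome 14 (chr14:55578123-55581529 and chr14:55587441-55591113). By their RefSeq starts, Tap1 and Psmb9 start 226 bases apart and are read away from each other, so their 300-base promoter windows share 275 bases (91.7%). In the Ensembl gene models, Psmb9 instead begins at chr17:34187764, past the Tap1 start at chr17:34187553, so that the 2 genes overlap. The Tap1 window is shown because both genes start inside it (RefSeq, GRCm38.p6, plus strand, chr17:34187306-34187605, 250 bases before to 50 after the Tap1 start). Its capitals mark CCAAT, the box bound by the NF-Y factors, at chr17:34187334-34187338, and in the Psmb9 window the same 5 bases lie 8 to 4 bases before the Psmb9 start. The B2m window is shown because it was the member window with most motif matches (chr2:122147437-122147736, plus strand). Its capitals mark first the interferon response core (GAAA, any 2 bases, GAAA) at 139 to 130 bases before the start. They then mark a kappaB consensus at 126 to 117 before it and CCAAT at 53 to 49 before it, both read on the other strand. None of these stretches overlap.
Tap1 promoter: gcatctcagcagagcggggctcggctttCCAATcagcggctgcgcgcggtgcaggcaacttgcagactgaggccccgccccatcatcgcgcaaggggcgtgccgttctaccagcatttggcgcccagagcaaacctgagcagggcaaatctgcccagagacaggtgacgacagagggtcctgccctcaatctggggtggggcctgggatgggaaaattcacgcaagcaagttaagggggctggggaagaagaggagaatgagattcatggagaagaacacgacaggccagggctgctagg
B2m promoter: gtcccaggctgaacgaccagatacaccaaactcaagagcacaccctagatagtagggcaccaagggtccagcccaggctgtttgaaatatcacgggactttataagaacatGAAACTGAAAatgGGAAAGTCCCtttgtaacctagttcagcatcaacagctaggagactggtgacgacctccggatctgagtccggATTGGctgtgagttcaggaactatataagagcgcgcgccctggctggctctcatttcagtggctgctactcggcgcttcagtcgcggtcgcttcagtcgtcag

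In all, 4 motifs were searched on both strands in the windows of the 8 members that have them, and the matches are a description of letters, not of bound sites. Windows for Tap2 and Nlrc5 were not analysed here. The interferon response core was in the windows of 2 of the 8 genes, B2m and Psme1, against 3.44% of all 32851 windows. In Psme1 it lay 10 to 19 bases after the start, as TTTCGCTTTC on the other strand. The kappaB consensus was in 1 of 8 (B2m) against 5.8% of all windows, and the STAT site TTCNNNGAA was in 1 of 8 (Psmb8, as TTCCCAGAA at 97 to 89 bases before the start) against 8.3%. CCAAT was in 4 of 8 (B2m, Tap1, Tapbp and Psmb9) against 37.4%. The Tap1 and Psmb9 matches are the same stretch, counted for both genes.

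With control siRNA, LPS raised all 10 genes. Tap1 rose 14.6-fold, Nlrc5 8.78-fold, Tap2 5.42-fold and Tapbp 5.38-fold, the immunoproteasome subunits rose 3.42- to 4.01-fold, and Psme2, Psme1 and B2m rose 3.03-, 2.36- and 2.28-fold. The background of this comparison was high, with 13.8% of all tested genes called higher, 18.3% lower and 32.1% in either direction. The median log2 fold change of the 10 genes was 1.98, against -0.02 over all tested genes. In each of the 10 genes every LPS library lay above every library without LPS, which held for 17.2% of tested genes, with 23% the other way round. None of these 10 calls was lost when any library was left out, and the adjusted p stayed at or below 0.00755. In bulk RNA a change in RNA per cell and a change in the share of responding cells cannot be told apart.

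With SF3a1 siRNA, LPS raised 8 of the 10 genes, with smaller estimated folds than in control cells. Tap1 rose 2.22-fold, Tapbp 2.08-fold, Psmb8 1.84-fold, Psme2 1.83-fold, Nlrc5 1.77-fold, Psmb10 1.73-fold, and Tap2 and Psmb9 both 1.57-fold. For Psmb8 and Psme2 the difference from control cells was not called in the test given next. B2m (1.49-fold, adjusted p = 0.162) and Psme1 (1.38-fold, adjusted p = 0.23) missed the threshold. Both passed it with the replicate number as a block (adjusted p = 0.041 and 0.0381), and B2m also with no filter on low counts (0.0696). Of all tested genes 6.6% were called higher here, 4.06% lower and 10.7% in either direction. In 8 of the 10, all but B2m and Nlrc5, the libraries did not overlap, against 13.3% of tested genes with LPS higher and 11.5% with LPS lower. The median log2 fold change of the 10 was 0.81, against 0.01 over all genes. Leaving out replicate 2 or 3 of SF3a1 siRNA without LPS, or replicate 1 of SF3a1 siRNA with LPS, each brought the number called from 8 to 5. The Tap2 call (adjusted p = 0.0681) was lost in 6 of 12 fits without a library (adjusted p 0.1 to 0.232), those 3 and each without a resting control library, Psmb10 in those 3 (0.156 to 0.177), and Psmb9 without replicate 1 of resting SF3a1 siRNA cells (0.114).

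The difference between these responses was tested as the interaction of siRNA and LPS, in which 1.94% of tested genes were called lower, 1.54% higher and 3.47% in all. Of the 10 genes 6 were called lower and none higher. The fold by LPS with SF3a1 siRNA was 15.2% of that with control siRNA for Tap1 (log2 difference -2.72 ± 0.25 (SE), adjusted p = 0.000397), 20.1% for Nlrc5 (-2.31 ± 0.31, 0.00372), 29% for Tap2 (-1.78 ± 0.28, 0.00853), 38.7% for Tapbp (-1.37 ± 0.21, 0.00853), 39.2% for Psmb9 (-1.35 ± 0.22, 0.00979) and 44.5% for Psmb10 (-1.17 ± 0.31, 0.0801). The Psmb10 call was lost in 10 of the 12 fits that left out a library (adjusted p 0.0115 to 0.165 over the 12). Psmb8 (53.7%), Psme1 (58.6%), Psme2 (60.4%) and B2m (65.1%) had adjusted p = 0.138, 0.242, 0.202 and 0.443. With the replicate block Psmb8, Psme1 and Psme2 were called as well (adjusted p = 0.0328, 0.0362 and 0.0441). Psmb8 was also called under DESeq2 (0.0492) and with no filter on low counts (0.0642), and Psme2 under DESeq2 (0.0907) and without replicate 2 of control cells with LPS (0.0853).

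**Figure D1:**
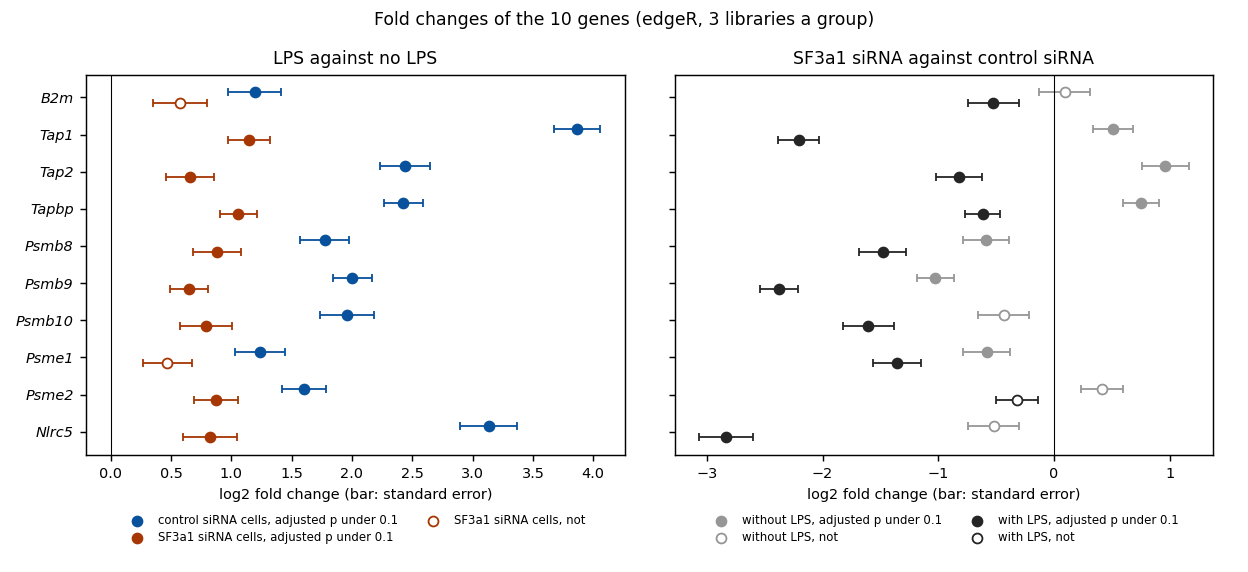
Log2 fold change of each of the 10 genes (x axis) with its standard error (bar), for LPS against no LPS in control and SF3a1 siRNA cells (left) and for SF3a1 against control siRNA without and with LPS (right); filled points have an adjusted p under 0.1. The estimated LPS response is smaller with SF3a1 siRNA for each of the 10 genes (1.38- to 2.22-fold against 2.28- to 14.6-fold), a difference called for 6, and without LPS the SF3a1 effect split into higher and lower genes.

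SF3a1 siRNA without LPS moved members in opposite directions. The peptide transport genes rose, Tap2 to 195%, Tapbp to 168% and Tap1 to 142% of control, whereas Psmb9 fell to 49.2%, Psmb8 to 66.7% and Psme1 to 66.8%. Thus 3 of 10 were called higher and 3 of 10 lower, where 13.7% and 20.1% of all tested genes were (33.8% in either direction). The libraries did not overlap for 4 genes that were higher and 5 that were lower, against 20.2% and 25.4% of tested genes. Nlrc5 (69.6%, adjusted p = 0.105), Psmb10 (73.9%, 0.165), B2m (107%, 0.807) and Psme2 (133%, 0.117) were not called, and with the replicate block Nlrc5 and Psmb10 were called lower and Psme2 higher (adjusted p = 0.0493, 0.0329 and 0.0285), which took the lower calls from 3 to 5. Psme2 was also called higher under DESeq2 (0.0561), with upper-quartile scaling (0.0779) and in 3 fits without a library (0.0624 to 0.0793), Nlrc5 lower with no filter on low counts (0.0581) and in 2 fits without a library (0.0107 and 0.0768), and Psmb10 lower in 2 such fits (0.0623 and 0.0799). The Tap1 call was lost without replicate 2 of SF3a1 siRNA without LPS (adjusted p = 0.137). Psmb8 was lost without control replicate 2 or 3 or SF3a1 siRNA replicate 3 (adjusted p 0.122 to 0.279), and Psme1 without control replicate 2 or 3 or SF3a1 siRNA replicate 1 or 2 (0.107 to 0.33) and with upper-quartile scaling (0.104). Reads outside annotated genes were 20.8 to 27.2% in the SF3a1 siRNA libraries without LPS and 17.9 to 19.6% in their controls, and their part in these differences was not tested.

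SF3a1 siRNA with LPS lowered 9 of the 10 genes. Nlrc5 was at 14% of control, Psmb9 at 19.3%, Tap1 at 21.7%, Psmb10 at 32.9%, Psmb8 at 35.8%, Psme1 at 39.1%, Tap2 at 56.6%, Tapbp at 65.2% and B2m at 69.5%, while Psme2 was at 80.3% with an adjusted p of 0.211. The background was 20.4% of tested genes called lower, 18.4% higher and 38.8% in either direction. The median log2 fold change was -1.42, against -0.04 over all tested genes. In 8 of the 10 every SF3a1 library lay below every control library, which held for 21.1% of tested genes, with 18% the other way round. The exceptions were Psme2 and B2m, and the B2m call (adjusted p = 0.0913) was lost in 7 of 12 fits without a library, among them each without replicate 1 or 3 of either LPS group (adjusted p 0.17 to 0.264), and with upper-quartile scaling (0.133).

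**Figure D2:**
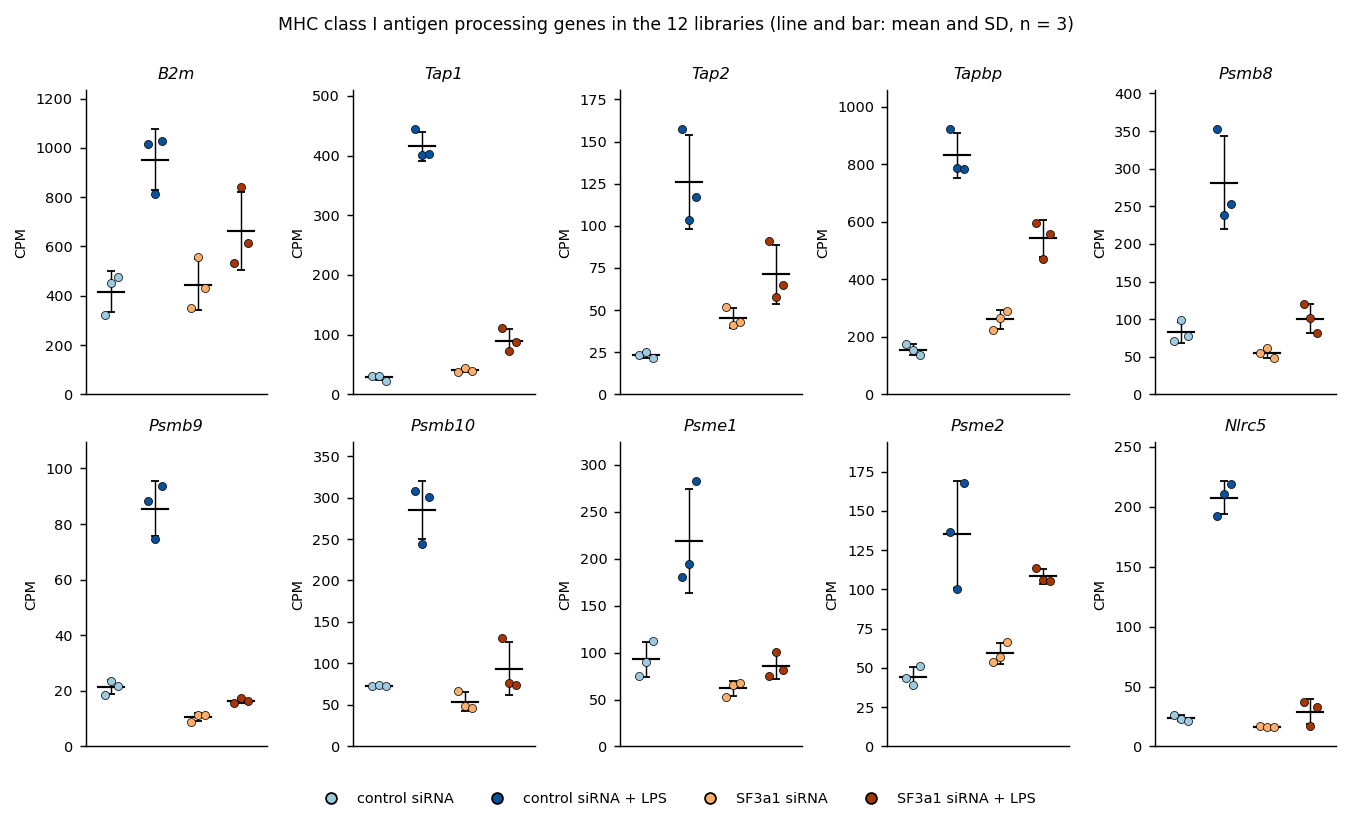
CPM (y axis, from 0) of the 10 genes in each of the 12 libraries, with the mean and SD of the 3 libraries of each group. The control LPS libraries stand above all others for every gene but B2m and Psme2, for which the LPS groups overlap.

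The immunoproteasome replaces the catalytic beta subunits of the standard proteasome by Psmb8 (LMP7), Psmb9 (LMP2) and Psmb10 (MECL-1), which shift its cuts towards peptides that class I molecules bind. Psmb9 was at 18.6, 23.5 and 21.9 CPM in the control libraries without LPS and at 88.2, 74.5 and 93.7 CPM with LPS. With SF3a1 siRNA it was at 8.89, 11.2 and 11.4 CPM without LPS and at 15.7, 17.4 and 16.4 CPM with LPS. The 4 groups did not overlap for Psmb9, and with LPS the SF3a1 libraries stayed below even the unstimulated control libraries. The change by SF3a1 siRNA with LPS was -2.38 ± 0.16 on the log2 scale (SE, n = 3 against 3, adjusted p = 4.53e-06).

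Psmb8 was at 71.3, 98.2 and 77.3 CPM in control cells and at 352, 239 and 254 CPM after LPS. With SF3a1 siRNA it was at 55.4, 61.3 and 47.8 CPM, and after LPS at 120, 102 and 81.0 CPM, so SF3a1 siRNA cells with LPS overlapped resting control cells for Psmb8. Psmb10 was at 72.7, 74.3 and 72.8 CPM in control cells and at 308, 244 and 301 CPM after LPS. It was at 67.0, 48.4 and 46.8 CPM with SF3a1 siRNA and at 130, 76.6 and 73.5 CPM after LPS, with replicate 1 the highest in both SF3a1 groups. The log2 changes by SF3a1 siRNA with LPS were -1.48 ± 0.20 for Psmb8 (adjusted p = 0.000194) and -1.60 ± 0.22 for Psmb10 (adjusted p = 0.000221).

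The standard subunits that they replace were not called lower with SF3a1 siRNA. Psmb5, the chymotrypsin-like subunit that Psmb8 displaces, had 0.38 log2 with LPS in control cells (adjusted p = 0.128). This change passed the threshold in 2 of 12 fits without a library (lowest adjusted p = 0.0609). Psmb5 rose with SF3a1 siRNA to 142% of control without LPS (adjusted p = 0.0467) and to 144% with LPS (adjusted p = 0.0333). These 2 calls were lost without SF3a1 siRNA replicate 3 in resting cells (adjusted p = 0.15) and without SF3a1 siRNA replicate 2 with LPS (0.13). Psmb6, displaced by Psmb9, rose with LPS 1.53-fold in control and 1.49-fold in SF3a1 siRNA cells (adjusted p = 0.00487 and 0.0226), and SF3a1 siRNA left it at 115% and 111% of control (adjusted p = 0.336 and 0.441). Psmb7, displaced by Psmb10, rose 1.4-fold with LPS in control cells (adjusted p = 0.0274). It was at 1.27-fold in SF3a1 siRNA cells (adjusted p = 0.222), which passed the threshold in 1 of 12 fits without a library (0.0795). None of the 3 was called in the interaction (adjusted p = 0.908 to 0.99).

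Dividing the CPM per kb of exon of each immunosubunit by that of the subunit it replaces gives a ratio for each library, a comparison chosen after the values were seen. The Psmb8 to Psmb5 ratio was 0.548 ± 0.0099 (SD, n = 3) in control cells and 1.44 ± 0.30 after LPS, and 0.26 ± 0.047 and 0.367 ± 0.099 with SF3a1 siRNA. The Psmb9 to Psmb6 ratio was 0.0698 ± 0.00071 and 0.182 ± 0.016 in control cells, and 0.0299 ± 0.0025 and 0.0318 ± 0.0037 with SF3a1 siRNA. The Psmb10 to Psmb7 ratio was 0.911 ± 0.096 and 2.51 ± 0.25 in control cells, and 0.684 ± 0.11 and 0.93 ± 0.19 with SF3a1 siRNA. For all 3 pairs the SF3a1 siRNA libraries with and without LPS overlapped, while the control groups did not. By exact two-sided permutation tests over libraries, control cells with and without LPS differed with p = 0.1 for all 3 pairs and SF3a1 siRNA cells with p = 0.2, 0.6 and 0.2. These tests do not use the replicate numbers, within which the Psmb10 to Psmb7 ratio of SF3a1 siRNA cells was higher with LPS in 3 of 3 (0.81 and 1.13, 0.616 and 0.749, 0.627 and 0.912) and the other ratios in 2 of 3. A p of 0.1 is the smallest that 3 against 3 libraries allow, and over the 20 such comparisons made it becomes 0.133 after adjustment. The exon lengths are unions over all annotated transcripts, so the ratios compare libraries and not the absolute make-up of the proteasome.

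**Figure D3:**
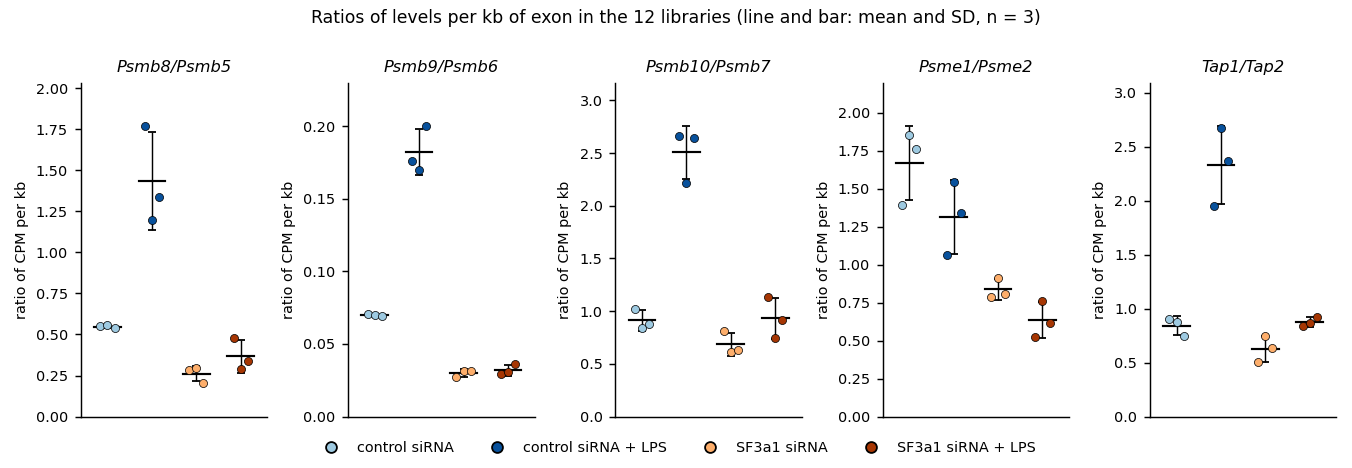
Ratio of CPM per kb of exon (y axis, from 0) for 5 gene pairs in each of the 12 libraries, with the mean and SD of the 3 libraries of each group. Psmb9 over Psmb6 has means of 0.0698 without and 0.182 with LPS in control cells, and of 0.0299 and 0.0318 with SF3a1 siRNA.

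Psme1 and Psme2 encode the alpha and beta subunits of PA28, the ring that caps the proteasome and helps release peptides, and their ratio was lower in every SF3a1 siRNA library than in any control library of the same LPS state. Psme1 was at 75.5, 90.3 and 113 CPM in control cells and at 181, 194 and 282 CPM after LPS. It was at 53.1, 65.2 and 67.5 CPM with SF3a1 siRNA and at 75.0, 101 and 81.1 CPM after LPS. Thus SF3a1 siRNA cells with LPS overlapped resting control cells for Psme1. Psme2 was at 43.4, 39.0 and 51.0 CPM in control cells and at 136, 100 and 168 CPM after LPS. It was at 53.8, 57.1 and 66.7 CPM with SF3a1 siRNA and at 114, 106 and 105 CPM after LPS, inside the range of the control cells with LPS. The ratio of Psme1 to Psme2 per kb was 1.67 ± 0.24 (SD, n = 3) and 1.31 ± 0.24 in control cells without and with LPS, and 0.837 ± 0.067 and 0.634 ± 0.12 with SF3a1 siRNA (exact two-sided permutation p = 0.1 for either siRNA contrast). The Psme2 counts are uncertain because Psme2b, an intronless near copy on chromosome 11, can take part of its reads. Psme2b was at 53.3% of control in SF3a1 siRNA cells with LPS (adjusted p = 0.00364), against 80.3% for Psme2.

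Tap1 and Tap2 encode the subunits of the peptide transporter, and Tapbp encodes tapasin. Tap1 was at 30.7, 31.6 and 23.1 CPM in control cells and at 444, 400 and 402 CPM after LPS. It was at 37.8, 44.4 and 39.5 CPM with SF3a1 siRNA and at 110, 72.2 and 87.1 CPM after LPS. The 4 groups did not overlap, and their order for Tap1 was control, SF3a1 siRNA, SF3a1 siRNA with LPS and control with LPS. The change by SF3a1 siRNA was 0.51 ± 0.17 log2 without LPS (adjusted p = 0.0453) and -2.21 ± 0.18 with LPS (adjusted p = 1.08e-05).

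Tap2 was at 23.4, 24.9 and 21.5 CPM in control cells and at 157, 104 and 117 CPM after LPS. It was at 51.8, 41.2 and 43.0 CPM with SF3a1 siRNA and at 91.1, 57.7 and 65.1 CPM after LPS. Tap2 kept the same order of groups as Tap1, again without overlap, with a narrower gap between the LPS groups. The Tap1 to Tap2 ratio per kb was 0.841 ± 0.087 (SD, n = 3) and 2.33 ± 0.36 in control cells without and with LPS, and 0.628 ± 0.12 and 0.875 ± 0.044 with SF3a1 siRNA. Between the LPS groups the ratio did not overlap (exact permutation p = 0.1, the smallest possible).

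Tapbp was at 174, 154 and 136 CPM in control cells and at 922, 789 and 785 CPM after LPS. It was at 224, 267 and 290 CPM with SF3a1 siRNA and at 596, 473 and 559 CPM after LPS. As for Tap1 and Tap2, the resting SF3a1 siRNA libraries were all above the resting control libraries and the LPS ones all below their controls. The log2 changes by SF3a1 siRNA were 0.75 ± 0.15 without LPS (adjusted p = 0.00306) and -0.62 ± 0.15 with LPS (adjusted p = 0.0083).

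Psmb9 and Tap1, whose promoter windows overlap as shown above, rose 4.01- and 14.6-fold with LPS in control cells, where all 10 members rose. They were called in opposite directions by SF3a1 siRNA without LPS, Psmb9 at 49.2% and Tap1 at 142% of control. The part of the shared stretch in either change was not tested. The exons of Psmb9 and Tap1 in the Ensembl gene models share 212 bases on opposite strands. Whether counting used the strand is not given in the sources used here, so reads in that stretch cannot be told apart. Other members also overlap exons on the opposite strand, Tap2 and Psmb8 with antisense transcripts (533 bases with Gm15821 and 498 with Gm20496) and Tapbp with Gm19412 (904 bases), and Tapbp shares 149 bases on its own strand with Zbtb22.

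B2m, the light chain, had the highest mean CPM of the 10 in every group, and its fold by LPS in control cells was the smallest of the 10, within the standard error of that of Psme1. It was at 322, 453 and 476 CPM in control cells and at 1017, 811 and 1029 CPM after LPS. It was at 350, 556 and 430 CPM with SF3a1 siRNA and at 534, 840 and 613 CPM after LPS. Resting groups overlapped, and replicate 2 of SF3a1 siRNA with LPS lay above replicate 2 of control siRNA with LPS.

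Nlrc5, the transactivator that binds class I promoters together with the RFX factors, was at 14% of control with SF3a1 siRNA after LPS, the lowest of the 10. It was at 26.4, 23.2 and 21.3 CPM in control cells and at 192, 211 and 219 CPM after LPS. It was at 17.4, 15.9 and 16.1 CPM with SF3a1 siRNA and at 36.8, 17.4 and 32.8 CPM after LPS. The libraries with SF3a1 siRNA and LPS thus lay on both sides of the resting control range, and replicate 2 was level with the highest resting SF3a1 siRNA library. The log2 change by SF3a1 siRNA with LPS was -2.84 ± 0.23 (adjusted p = 1.08e-05). The call of LPS against no LPS in SF3a1 siRNA cells (adjusted p = 0.0422) was lost in 4 of 12 fits without a library (adjusted p 0.13 to 0.146), those without replicate 2 or 3 of SF3a1 siRNA or replicate 1 or 3 of SF3a1 siRNA with LPS.

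Per kb of exon, a scale that depends on the annotated transcripts (the union is 860 bases from 1 transcript for B2m and 3660 from 7 for Psmb9), the order of the members in resting control cells was B2m (485 ± 97 (SD, n = 3)), Psmb10 (43.0 ± 0.55), Tapbp (42.6 ± 5.2), Psme1 (42.0 ± 8.5), Psme2 (25.2 ± 3.4), Psmb8 (24.3 ± 4.2), Tap2 (6.15 ± 0.45), Psmb9 (5.83 ± 0.69), Tap1 (5.20 ± 0.85) and Nlrc5 (2.78 ± 0.31). Psmb10, Tapbp and Psme1 did not differ beyond their spread, nor did Psme2 and Psmb8, nor Tap2, Psmb9 and Tap1. After LPS, Tapbp (229 ± 22) and Psmb10 (167 ± 21) followed B2m (1108 ± 143), and Nlrc5 (24.4 ± 1.6) and Psmb9 (23.4 ± 2.7) were the lowest and did not differ beyond their spread.

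The heavy chains that carry the peptide rose with LPS in control cells and were in part lower with SF3a1 siRNA. Of the 17 tested, all 17 rose with LPS in control cells (median log2 fold change 1.25; 13.8% of all tested genes), 8 rose with LPS in SF3a1 siRNA cells (median 0.66; 6.6%), and 10 were lower with SF3a1 siRNA in LPS cells (median -0.60; 20.4%). Without LPS 1 of 17 was lower with SF3a1 siRNA, below the 20.1% of all tested genes, namely H2-T22 (log2 -0.71 ± 0.28, adjusted p = 0.0762). H2-T24 rose 14.7-fold and H2-T23, the nonclassical Qa-1 chain that NK receptors read, rose 7.29-fold with LPS in control cells, and both were lower with SF3a1 siRNA in LPS cells (27.7% and 43.7% of control). H2-T22 and H2-M5 had log2 fold changes of 2.71 and 2.08 with LPS in control cells, and -1.37 and -1.36 with SF3a1 siRNA after LPS. H2-T22 and H2-Q6 rose with LPS in SF3a1 siRNA cells (log2 2.05 and 0.73). Of the classical chains, H2-K1 was at 395 CPM in control cells, 893 CPM after LPS, 453 CPM with SF3a1 siRNA and 644 CPM with both, and the last was at 72.1% of control with an adjusted p of 0.175. H2-D1 was at 601, 1303, 818 and 1111 CPM in the same order (85.3%, adjusted p = 0.4). These counts are uncertain, since heavy chains are near copies of each other and the line's BALB/c origin gives it other alleles than the reference genome, an effect that was not tested.

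Of 9 genes for loading and trimming in the endoplasmic reticulum, 3 rose with LPS in control cells, where 13.8% of all tested genes did: the tapasin relative Tapbpl (log2 1.42 ± 0.20), and the peptidases Lnpep (0.57 ± 0.20) and Erap1 (0.40 ± 0.13). With SF3a1 siRNA after LPS, 2 of 9 were lower, near the 20.4% of all tested genes, Tapbpl (-1.52 ± 0.20, adjusted p = 0.000152) and Erap1 (-0.66 ± 0.13, adjusted p = 0.00248). Without LPS 1 was higher, Lnpep (0.64 ± 0.20), against 13.7% of all tested genes. None was called for LPS in SF3a1 siRNA cells. Tapbpl was also called in the interaction (-1.20 ± 0.28, adjusted p = 0.0447).

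The rest of the proteasome is given beside the shares of all tested genes called higher with LPS (13.8% in control and 6.6% in SF3a1 siRNA cells) and lower with SF3a1 siRNA (20.1% without and 20.4% with LPS). Of 11 other 20S subunits, 5 rose with LPS in control cells and 3 in SF3a1 siRNA cells, among them Psma4 (log2 0.68 and 0.50), Psma5 (0.58 and 0.56) and Psma2 (0.44 and 0.52), while Psma6 (1.35 in control cells) had 0.89 in SF3a1 siRNA cells, not called. None of the 11 was called for SF3a1 siRNA without or with LPS or in the interaction. Of 17 subunits of the 19S cap, 4 rose with LPS under either siRNA (Psmd8, Psmc1, Psmd7 and Psmd11), and Psmd8, Psmc5 and Psmd13 were lower with SF3a1 siRNA in resting cells (log2 -1.07, -0.58 and -0.45) and with LPS (-1.25, -0.56 and -0.60), with Psmd11 higher (0.37), so that the 3 lower of 17 were near the share of all genes. The assembly chaperones and other activators held 4 genes of 7 that were lower with SF3a1 siRNA in both states: Psmg2 (-1.57 without and -0.92 with LPS), Psmg3 (-1.26 and -1.22), Psmg4 (-0.59 and -1.01) and Psme4 (-0.56 and -1.07). None of the 7 was called for LPS in control cells, and Psme3 alone rose in SF3a1 siRNA cells (0.35). Of 6 cytosolic peptidases, which trim or destroy peptides, Tpp2, Blmh and Nrd1 were lower with SF3a1 siRNA in resting cells (-0.90, -0.66 and -0.62) and with LPS (-1.05, -0.59 and -0.77), Thop1 was higher with SF3a1 siRNA in LPS cells (0.44; all genes 18.4%), and Lap3 rose with LPS in control cells (0.72).

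MHC class II genes, which present peptides to CD4+ T cells, were mostly too low to test. Of 11, 5 had enough counts to test, and with LPS in control cells 1 was called, Cd74, the invariant chain (log2 0.58 ± 0.24, adjusted p = 0.0959, with overlapping libraries), near the 13.8% of all tested genes called higher, and none was called with LPS in SF3a1 siRNA cells. Of the 5, 1 was higher with SF3a1 siRNA, H2-DMa (0.70 ± 0.17 without and 1.26 ± 0.17 with LPS; all genes 13.7% and 18.4%). Ciita, the class II transactivator and a relative of Nlrc5, had only 8, 21, 3 and 6 counts summed over the 3 libraries of each group in the order given above and was not tested.

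**Figure D4:**
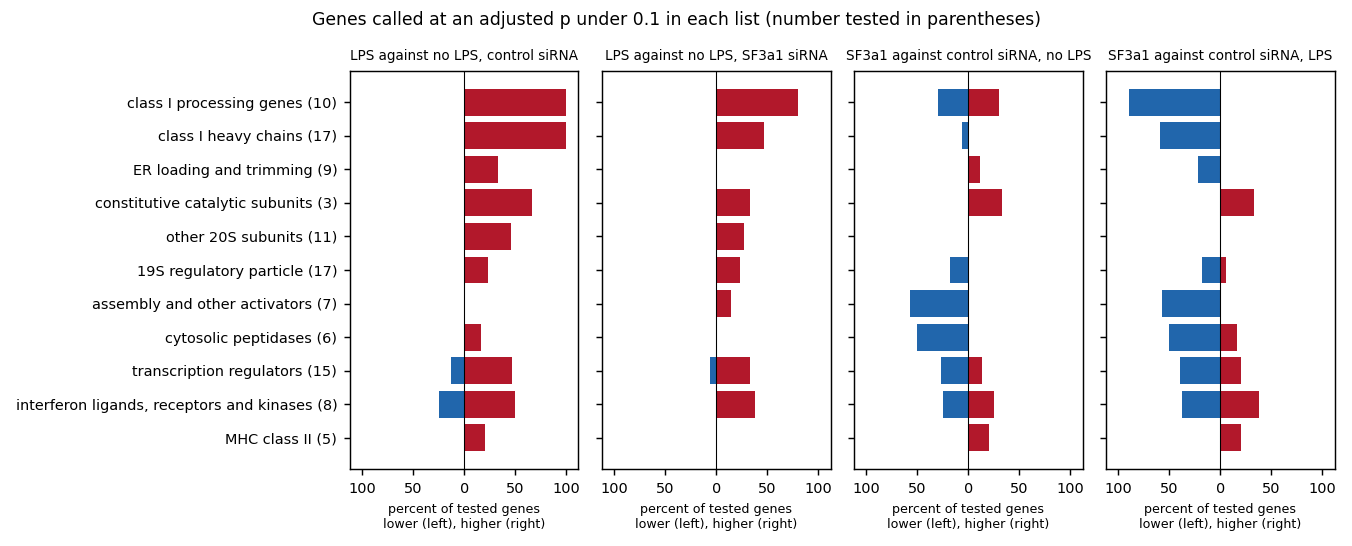
Percent of tested genes (x axis) called higher (red, right of 0) or lower (blue, left of 0) in 4 comparisons, for each gene list (y axis, with the number tested). All 10 class I processing genes and all 17 heavy chains were called higher with LPS in control cells, and 9 of 10 and 10 of 17 were called lower with SF3a1 siRNA after LPS.

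Among 15 tested regulators of class I genes, 7 were higher and 2 lower with LPS in control cells, where 13.8% and 18.3% of all tested genes were. Irf7, which turns on interferon genes, had a log2 change of 5.41 ± 0.50, Stat2 of 3.90 ± 0.17, Irf1 of 3.39 ± 0.34 and Nfkb1, an NF-kappaB subunit, of 2.48 ± 0.15. In SF3a1 siRNA cells 5 were higher and 1 lower (all genes 6.6% and 4.06%), with Irf7 at 3.11, Stat2 at 2.50, Irf9, a partner of Stat2, at 2.19 and Nfkb1 at 1.90. SF3a1 siRNA lowered 6 and raised 3 with LPS (all genes 20.4% and 18.4%), where Irf7 changed by -2.44 ± 0.43, Irf1 by -2.42 ± 0.33, the macrophage factor Irf8 by -2.26 ± 0.33 and Stat2 by -2.20 ± 0.15. Without LPS it lowered 4 and raised 2, near the 20.1% and 13.7% of all tested genes, with Irf8 at -1.39 ± 0.32, Rfx5 at 0.80 ± 0.16, Stat2 at -0.80 ± 0.15 and Nfyb, a subunit of NF-Y, at -0.73 ± 0.28. Nfya, another subunit of NF-Y, was higher with SF3a1 siRNA without LPS (0.60 ± 0.11) and with it (1.08 ± 0.11). The other regulators that SF3a1 siRNA raised in LPS cells were Rfxap (0.56) and Creb1 (0.50). All 3 were named here after their values were seen.

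Irf1, which activates Tap1 and Psmb9 in response to interferon, was at 25.6, 14.2 and 19.7 CPM in control cells and at 107, 242 and 275 CPM after LPS. It was at 16.9, 12.9 and 12.8 CPM with SF3a1 siRNA and at 30.2, 42.2 and 44.4 CPM after LPS, so replicate 1 was the lowest in both LPS groups. The regulators did not move as one. Rfx5, among the RFX factors with which Nlrc5 binds class I promoters, was at 35.8, 27.3 and 30.1 CPM in control cells. It was at 34.7, 31.1 and 35.9 CPM after LPS. With SF3a1 siRNA it was at 51.9, 58.0 and 52.5 CPM, above all control libraries, and after LPS at 36.2, 27.4 and 36.9 CPM, overlapping both control groups. The drop by LPS in SF3a1 siRNA cells was called for Rfx5 (log2 -0.69 ± 0.16, adjusted p = 0.0164).

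The interferon genes that feed this route were also measured. Ifnb1, which encodes interferon beta, had 1, 1 and 0 counts in the control libraries, 187, 346 and 464 after LPS, 0 in each SF3a1 siRNA library and 21, 83 and 76 after LPS. These are 4.92, 27.5 and 26.0 CPM against 0.636, 5.01 and 3.65 CPM after LPS, with the lowest value in replicate 1 of either group, and the groups overlapped. SF3a1 siRNA lowered Ifnb1 in LPS cells (log2 -2.67 ± 0.74, adjusted p = 0.0186). Within each replicate number the SF3a1 siRNA library was lower. The log2 rise of Ifnb1 with LPS was 9.46 ± 1.2 with control siRNA and 9.18 ± 1.73 with SF3a1 siRNA. Its interaction was not called, but with so few resting counts that test cannot judge whether the fold by LPS changed. Of the 8 tested interferon ligands, receptors and kinases, 4 were higher and 2 lower with LPS in control cells, where 13.8% and 18.3% of all tested genes were (Jak2 at 2.29, Tyk2 at 1.08 and the interferon gamma receptor chain Ifngr1 at -0.95 log2). In SF3a1 siRNA cells 3 were higher (all genes 6.6%), among them Jak2 (1.24) and Ifngr2 (0.44). SF3a1 siRNA gave 2 higher and 2 lower without LPS (Ifngr2 at 0.94, Tyk2 at -0.86, Jak1 at 0.65 and Ifnar2 at -0.32; all genes 13.7% and 20.1%) and 3 higher and 3 lower with LPS (Tyk2 at -1.73, Ifngr1 at 1.02 and Jak2 at -0.92; all genes 18.4% and 20.4%), and the 2 of 8 lower without LPS were near the share of all genes.

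**Figure D5:**
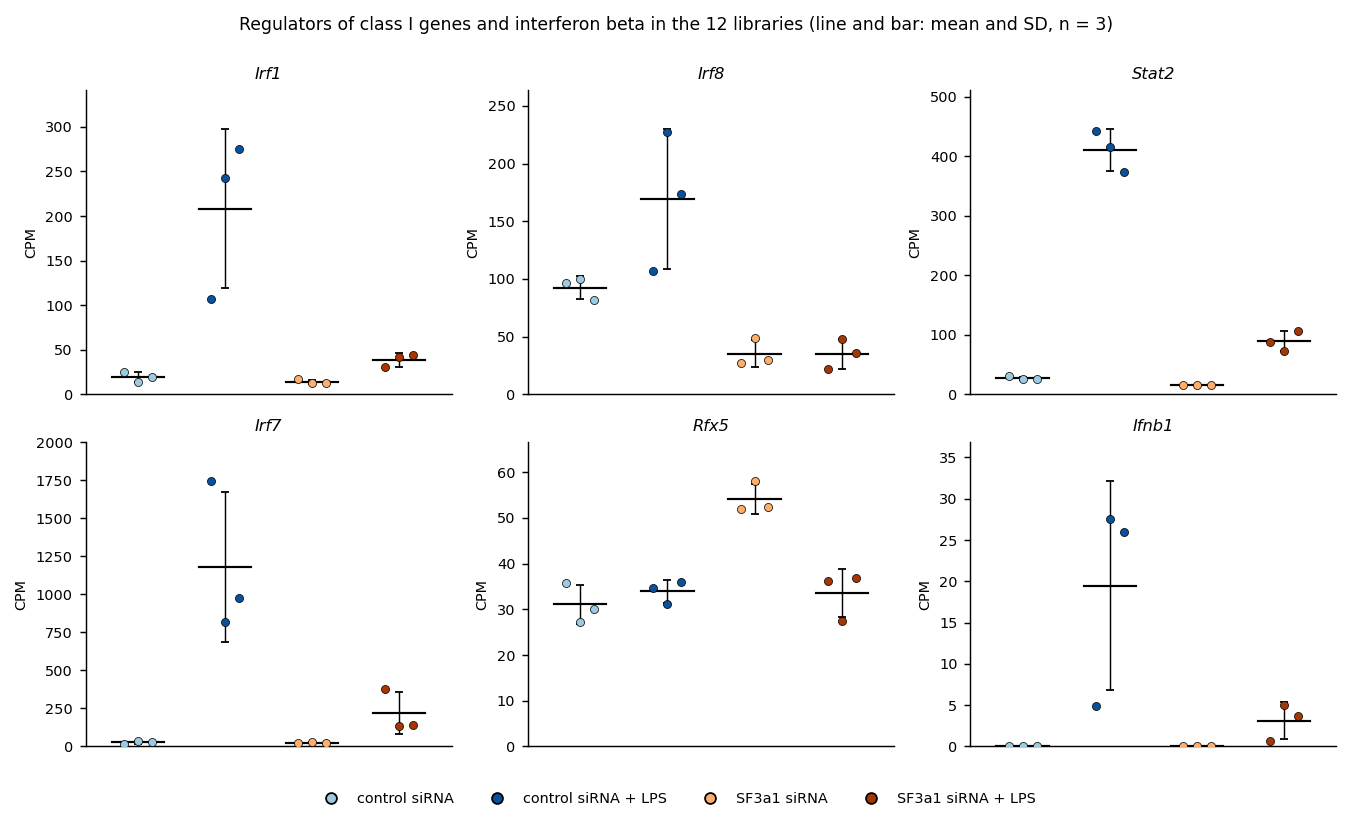
CPM (y axis, from 0) of Irf1, Irf8, Stat2, Irf7, Rfx5 and Ifnb1 in each of the 12 libraries, with the mean and SD of the 3 libraries of each group. Irf1, Irf8, Stat2 and Irf7 keep the groups with LPS apart, Rfx5 is highest in the SF3a1 siRNA libraries without LPS (51.9 to 58.0 CPM), and Ifnb1 is lowest in replicate 1 of each LPS group.

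Exon bin counts were used to ask whether the members changed their exon use, in 11 libraries, the remaining one, replicate 3 of the LPS-treated control cells, being not analysed here at that level. Use is the share of a gene's bin counts in a bin. Of 215 member bins tested, 3 were used less with LPS in control cells, 0 changed with LPS in SF3a1 siRNA cells, 1 was used more with SF3a1 siRNA without LPS and 3 with LPS, against 0.0801%, 0.0254%, 0.626% and 0.492% of all 153624 tested bins. Across all bins edgeR called 39 with LPS in SF3a1 siRNA cells, and limma-voom called 21 there and also 0 among members. With the replicate block 1 member bin was called there and 4 for SF3a1 siRNA in resting cells (2 used more and 2 less), whereas limma-voom called 0 in resting cells and 1 with LPS. Called bins lay in 2 members for LPS in control cells, and in 1 and 2 members for SF3a1 siRNA without and with LPS, where 0.462%, 6.16% and 5.03% of all 10609 genes or joined genes held one (0.104% for LPS in SF3a1 siRNA cells). Tapbp was among these members for LPS in control cells and for SF3a1 siRNA with LPS, with 2 called bins in each. Its bins are counted in a unit joined with Zbtb22, so they may belong to either gene. No bin of B2m, Tap2, Psmb9, Psmb10, Psme2 or Nlrc5 was called in any of the 4 comparisons by the fit without the block.

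Bin 1 of Tap1 (chr17:34187553-34187727, 175 bases, the start of its first exon) fell in use from 3.05% ± 0.80 (SD, n = 3) to 0.75% ± 0.095 (n = 2) with LPS in control cells (log2 -1.97, adjusted p = 0.0808), a call lost in 8 of 11 fits without a library (adjusted p 0.0407 to 1). This bin lies where Tap1 and Psmb9 exons overlap, and its summed counts were 104 and 246. Tapbp is counted in a unit joined with Zbtb22. Its bins 4 and 5 fell in use with LPS in control cells, bin 5 from 13.9% ± 0.11 to 1.74% ± 0.14 (adjusted p = 7.93e-10) and bin 4 from 2.49% ± 0.55 to 0.317% ± 0.0079 (adjusted p = 6.72e-08), and rose with SF3a1 siRNA after LPS, to 4.54% ± 0.72 (adjusted p = 0.0285) and 0.839% ± 0.24 (adjusted p = 0.0829). The gene and position of these bins cannot be told apart within the unit, and a change of either gene changes their use. Bin 4 of Psmb8 rose in use with SF3a1 siRNA after LPS from 0.887% ± 0.026 to 3.66% ± 1.6 (adjusted p = 0.0673). Bin 11 of Psme1 rose without LPS from 0.0523% ± 0.018 to 0.425% ± 0.090 (adjusted p = 0.0361) on 12 and 46 counts. As for Tap1, each SD of control cells with LPS is over 2 libraries. Limma-voom did not call these bins of Psmb8 and Psme1 (adjusted p = 0.172 and 0.569), nor bin 4 of Tapbp with SF3a1 siRNA after LPS (0.101). The other calls named here held under limma-voom. The rebuilt annotation did not match the bins of Tapbp, Psmb8 or Psme1, so no position is given for them. Over the same 11 fits, bins 4 and 5 of Tapbp kept their calls for LPS in control cells, while with SF3a1 siRNA the calls were lost in 8 and 3 fits for bins 4 and 5 of Tapbp, in 6 for bin 4 of Psmb8 and in 4 for bin 11 of Psme1.

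The genes whose pattern over the 12 libraries was most like the mean of the members, by Pearson correlation of log2 CPM with the mean of the members' standardised values, were Nampt (0.991), Fpr2 (0.991), Tgtp2 (0.990), Trim30c (0.989), Phf11a (0.988), Batf2 (0.987), Parp12 (0.986), Fbxw17 (0.986), Pnp2 (0.986) and Epsti1 (0.985). The 12 points share their libraries and fall into 4 groups, so these values describe likeness of group means. The members themselves correlated with their mean between 0.873 (Psme2) and 0.982 (Tap1). Nampt was at 105 CPM in control cells, 319 after LPS, 90.7 with SF3a1 siRNA and 153 with both. Batf2 was at 0.974, 57.8, 0.783 and 4.88 CPM, and Parp12 at 62.1, 442, 49.9 and 136 CPM.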

How the data were processed

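RNA from 12 RAW264.7 cultures was selected for polyA and sequenced single-end on an Ion Proton by the study, with replicate 1 of each group sequenced in 2 runs. Reads of at least 30 nucleotides were mapped to mm10 with GSNAP (per the submitters' processing notes) and uniquely mapped reads were counted per Ensembl gene with HTSeq. The deposited values are these raw counts per gene, together with counts per exon bin made with DEXSeq's scripts, used here for 11 of the libraries. Strand use in counting is not given in the sources used here. The table held 38215 genes, of which 9577 were at 0 in every library, and 36345 identifiers had a symbol in the reference names.

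Genes passing filterByExpr (14983) were tested with edgeR 4.0.16 in R 4.3.3 (TMM, quasi-likelihood, 1 mean per group, all 12 libraries), with Benjamini-Hochberg adjustment and a threshold of 0.1. Bin usage was tested with edgeR's diffSpliceDGE. The interaction is the SF3a1 siRNA effect with LPS minus that without. CPM used TMM-scaled totals, per kb used the union of annotated exons, and a standard error is the log2 fold change over the root of its F statistic. The scripts were tested on simulated data. Bulk replicates differed by more than sampling noise in every pair, and replicates 2 and 3 were the closest pair in each group. The p-values of the main fit measure the spread between these cultures. This spread includes any part shared by replicate number, which that fit does not remove. Same-numbered libraries deviated together (18 pairs, correlation 0.14 to 0.6, median 0.36, against -0.52 to 0.35 for 36 pairs of different numbers), so the numbers were taken to pair the samples, and a fit with the number as a block was an alternative. The others were DESeq2 1.42.0, upper-quartile scaling, no filter on low counts, limma-voom 3.58.1 for bins, and leaving out each library.

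Reads outside genes (17.8 to 27.2%) and ambiguous reads (0.431 to 0.53%) stayed out of the totals. The 10 genes, the other gene lists and the comparisons were chosen with earlier results of these data known. All 10 genes were named in each comparison, with up to 4 called genes of each other list by size of change, and the standard catalytic subunits, Irf1, Rfx5, Ciita and Ifnb1 always. Values for Psme2b, the gene ratios and the CPM chosen for display of other genes were added after the values were seen. A gene of the regulator list is not reported here.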

Additional observations from a re-analysis of the deposited data

Results flagged for a closer look

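In the test of the interaction, the response to LPS was smaller with SF3a1 siRNA than with control siRNA for 6 of the 10 genes, where 1.94% of all tested genes were called lower: Tap1 (log2 difference -2.72), Nlrc5 (-2.31), Tap2 (-1.78), Tapbp (-1.37), Psmb9 (-1.35) and Psmb10 (-1.17, a call lost in 10 of the 12 fits without a library). The same held for 3 of 17 heavy chains, H2-T23 (-1.63 ± 0.35 (SE), adjusted p = 0.0315), H2-T24 (-1.54, adjusted p = 0.056) and H2-T10 (-1.22, adjusted p = 0.0512), and for 1 of 9 loading and trimming genes, Tapbpl (-1.20, adjusted p = 0.0447). Among the 15 regulators 4 were called: it held for Irf7 (-2.30, adjusted p = 0.0743), Irf1 (-1.94, adjusted p = 0.046) and Stat2 (-1.40, adjusted p = 0.0065). Rfx5 (-0.82 ± 0.22, adjusted p = 0.0878) was the fourth, but was not called in 10 of the 12 fits without a library. Of the 8 macrophage markers 1 was called, Fcgr1, the high-affinity IgG receptor and itself a gene that interferon raises (-2.83, adjusted p = 0.00149).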

How the results depend on the processing

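Of the 50 results for the 10 genes (5 comparisons each), 47 kept direction and side of the threshold under DESeq2, 47 with no filter on low counts, 47 under upper-quartile scaling and 42 with the replicate block. The block added 8 calls and changed no other call of the 10 genes. Of 600 results without a library, 551 kept both, 39 lost the call, 9 gained it and 1 reversed, B2m with SF3a1 siRNA without LPS (-0.084 without replicate 2 of SF3a1 siRNA, highest 0.289). With the replicate block, over all tested genes, LPS in SF3a1 siRNA cells gave 1694 genes higher and 1421 lower (989 and 609 without it), SF3a1 siRNA without LPS 3105 higher (2058), with 5 of the 10 genes lower (3), and the interaction 980 higher and 776 lower (230 and 290). The interaction gave 425 higher and 541 lower under DESeq2 and 431 and 499 with no filter. Member bins called with the replicate block were 1 for LPS in SF3a1 siRNA cells and 4 for SF3a1 siRNA without LPS, and limma-voom gave 0 for SF3a1 siRNA in resting cells and 1 with LPS. The causes were not tested.

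Without a library, the number of the 10 genes higher with LPS in SF3a1 siRNA cells was 5 to 8, all genes lower there 283 to 841, the 10 genes lower with SF3a1 siRNA without LPS 1 to 5 (1 without control replicate 2 or 3), the interaction 89 to 392 higher and 184 to 319 lower, and member bins 0 to 1 for resting SF3a1 siRNA cells and 0 to 3 for those with LPS. Leaving out a control LPS library left 1 library with bins in that group, assumed to vary like the others. Signs turned, never past the threshold, for Sf3a1 with LPS in SF3a1 siRNA cells (-0.0194 to 0.38), Psmb7 with SF3a1 siRNA without LPS (0.0218 under DESeq2 and 0.0153 under upper-quartile scaling, -0.0788 to 0.108 without a library), Rfx5 with SF3a1 siRNA after LPS (-0.0891 to 0.109), and in the interaction for Psmb5 (-0.0070 with the replicate block, -0.0238 under DESeq2 and -0.0193 under upper-quartile scaling, -0.173 to 0.127 without a library), Psmb6 (-0.155 to 0.0496) and Ifnb1 (-0.81 to 0.20). Depth limits the exon bins: the called bin of Psme1 rests on 12 and 46 counts.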

Other observations

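Among the 8 macrophage markers, 5 were higher and 1 lower with LPS in control cells, where 13.8% and 18.3% of all tested genes were. Cd14, the LPS co-receptor, had a log2 change of 2.35 ± 0.26 (SE), Fcgr1 of 2.83 ± 0.23, Itgam of 1.61 ± 0.41 and Mertk, a receptor for dying cells, of 1.51 ± 0.59, and Csf1r, the receptor for macrophage colony-stimulating factor, fell by 1.04. With LPS in SF3a1 siRNA cells 1 was higher (Cd14, 1.38 ± 0.25) and 1 lower (Csf1r, -0.55 ± 0.14; all genes 6.6% and 4.06%). SF3a1 siRNA raised 2 without LPS, Mertk (3.38 ± 0.55) and Lyz2 (0.47 ± 0.18; all genes 13.7%), and after LPS it lowered Fcgr1 (-3.20 ± 0.23) and Adgre1 (-0.71 ± 0.28) and raised Mertk (2.01 ± 0.50) and Csf1r (0.69 ± 0.14), 2 of 8 in either direction being near the 20.4% lower and 18.4% higher of all tested genes. Mertk was low throughout, at 0.0851 to 2.60 CPM. The summed level of the 8 markers was 9252 to 10650 CPM per library in resting control cells and 11360 to 13280 CPM in control cells with LPS. It was 11970 to 13250 CPM in resting SF3a1 siRNA cells and 11290 to 15010 CPM in those with LPS. The resting control libraries thus lay below all others, and the part of this in the differences above was not tested.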
